A study of Zea mays with 6 samples.

Results

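The Aux/IAA family was followed, through 10 of its genes, in maize stem nodes of the dwarf mutant zmte1-2 and of WT plants (inbred line B73). These 10 genes, of 5546 in the deposited node table, are the rows whose protein description or KEGG orthology K14484 places them in this family and whose level was above about 1 FPKM in at least 1 genotype. FPKM counts sequenced fragments relative to transcript length and to the total of the library. A further row with that orthology, GRMZM2G059544 (described as IAA25), fell short of this level, with a mean of 0.277 FPKM in zmte1-2 and 0.873 FPKM in WT. The member just inside, GRMZM5G809195, had a mean of 0.60 FPKM in zmte1-2 and 3.33 FPKM in WT.

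The mutant zmte1-2 came from a chemical (EMS) mutagenesis screen, was crossed to B73 and carries a recessive C-to-T change that cuts short the RNA-binding protein ZmTE1. The sources used here do not say whether other induced variants remained in the sequenced plants, or how many plants made up a library. RNA came from nodes, by the labels with their internodes, of field-grown seedlings at 28 days, with 3 zmte1-2 libraries and 3 WT libraries. The labels number the nodes 1 to 3 within each genotype, which could mean replicates or positions along the stem. The paper's Methods name 3 nodes from the last brace root as the tissue. They do not say whether these were sequenced apart or pooled. The libraries were treated as replicates, so each SD and p-value measures only the spread between these libraries, which may be technical or hold differences between node positions. The transcript of ZmTE1 itself (GRMZM2G085113) was listed at 0.33, 0.10 and 0.49 FPKM in zmte1-2 libraries 1 to 3 and at 0.51, 1.19 and 1.0 FPKM in WT libraries 1 to 3. These groups did not overlap, at levels below the minimum set for the test.

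Aux/IAA proteins are short-lived repressors of the auxin response. They bind auxin response factors (ARFs) through a shared C-terminal domain and bring corepressors to the genes that those factors occupy. Auxin joins them to receptors of the TIR1/AFB type, which are parts of a ubiquitin ligase, and so leads to their destruction. Many Aux/IAA genes are themselves switched on quickly by auxin, so that the family acts as a feedback brake on the signal and its transcripts serve as readouts of it. In stems and inflorescences the pathway is known for its roles in cell elongation, in vascular tissue and in the initiation of lateral organs.

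All 10 members passed the minimum for testing (at least 1 FPKM in at least 3 libraries), as did 3987 genes in all. GRMZM5G809195, GRMZM5G825707 and GRMZM2G031615 reached 1 FPKM in only 1 zmte1-2 library, so they passed through their WT values. In zmte1-2, 5 members had a lower mean and 5 a higher mean than in WT. On log2(FPKM + 0.5), 3 members fell and 1 rose at a Benjamini-Hochberg adjusted p under 0.05 from limma, and 6 did not pass. The shares of 30% lower and 10% higher lay near those of all tested genes, of which 34.2% were called lower and 6.02% higher. The table holds only genes that the authors had called between these same libraries, so these shares are not those of the genome, and an adjusted p is no estimate of false calls. Fold changes on this scale understate the change of weakly expressed genes. The 3 zmte1-2 values lay below the 3 WT values in 4 members and above them in 2, beside 48.8% and 11.4% of all listed genes. The median log2 fold change was -0.51 over the 10 members and -1.08 over all tested genes. The first value falls between 5 negative and 5 positive fold changes, with medians of -1.94 and 1.20. It therefore describes no member and is no measure of how far the family fell.

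The genes carry names that differ between sources, so IDs are used here. All 10 matched a RefSeq gene (assembly Zm-B73-REFERENCE-NAM-5.0, used for names only) by synonym. They lie on 6 chromosomes by the coordinates of the deposited table, for which no source used here names the build. GRMZM5G809195 (chromosome 1, 288465742 to 288467255) is described as Aux/IAA-transcription factor 5. GRMZM5G825707 (chromosome 2, 128381501 to 128388580) is named IAA6 in the primer list of the study and IAA27 in the deposited description. GRMZM2G079957 (chromosome 1, 170553927 to 170555938; RefSeq synonym AUX17) is IAA2 in the primer list, while the description IAA2 belongs to another member, GRMZM2G104176. GRMZM5G864847 (chromosome 6, 130188997 to 130190406) is IAA20 in the primer list, IAA16 in its description and BIF4 among the RefSeq synonyms. In maize, dominant alleles of Barren inflorescence4 are known to hinder the formation of axillary meristems in the tassel and ear. The 2 members on the chromosome of ZmTE1, GRMZM2G057067 and GRMZM2G104176, lie 34.2 and 158 Mb from it.

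The 5 members with lower means stood furthest below WT in zmte1-2 libraries 1 and 3, and zmte1-2 library 2 was the highest of its genotype in each of them. GRMZM5G809195, the least abundant of the 10, had 0.21, 1.34 and 0.25 FPKM in zmte1-2 libraries 1 to 3, against 3.67, 3.34 and 2.99 FPKM in WT libraries 1 to 3. The groups did not overlap, and the WT libraries lay close together. It fell, with a mean 5.56-fold lower in zmte1-2 (0.60 ± 0.641 FPKM, against 3.33 ± 0.340 FPKM in WT, SD, n = 3). The limma adjusted p was 0.0215, at a log2 fold change of -1.94 (SE 0.42). GRMZM5G825707 had 0.22, 4.95 and 0.33 FPKM in zmte1-2, against 13.3, 6.52 and 6.26 FPKM in WT. Here too the groups did not overlap, but zmte1-2 library 2 came near the lower WT libraries. It also fell, with the largest log2 fold change of the 10 (-2.55, SE 0.81, limma adjusted p = 0.0460). In zmte1-2 library 2 it stood at 57.0% of the WT mean, and libraries 1 and 3 averaged 3.17% of it.

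**Figure D1:**
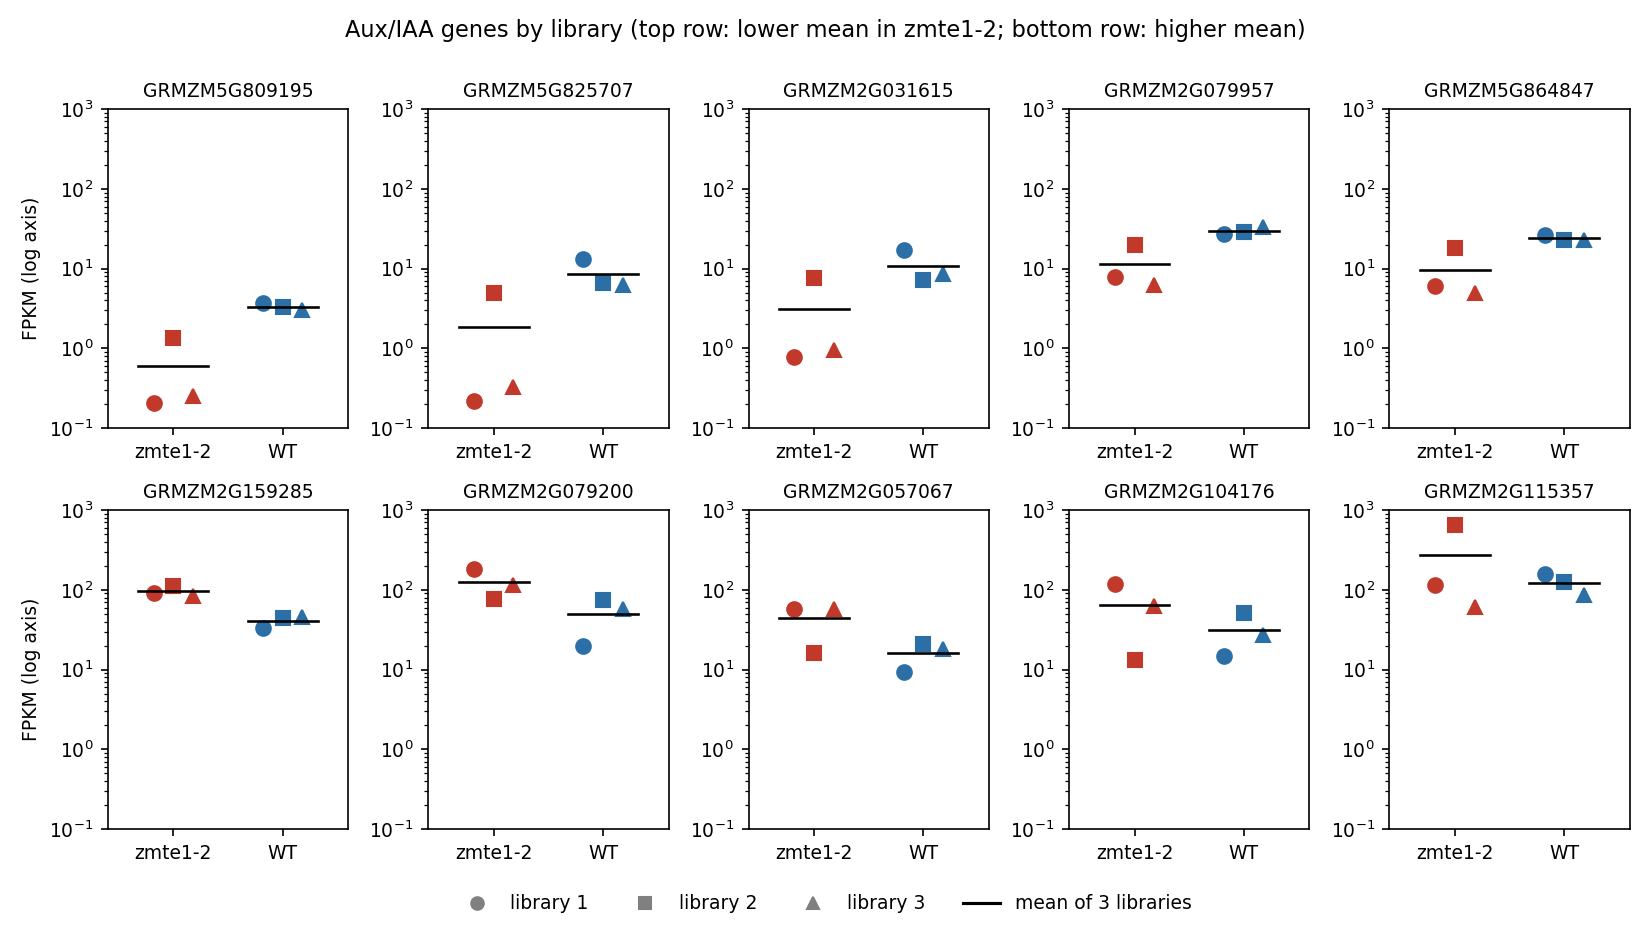
FPKM (log axis) of each of the 10 Aux/IAA genes in the 3 zmte1-2 libraries (red, left) and the 3 WT libraries (blue, right), with the marker giving the library number and the bar the mean. In all 5 genes of the top row the square of zmte1-2 library 2 is the highest of its genotype, and in GRMZM2G115357 it stands at 650.2 FPKM, above all other libraries.

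GRMZM2G079957 was among the more abundant members. It had 7.85, 19.8 and 6.30 FPKM in zmte1-2, against 26.9, 29.2 and 33.4 FPKM in WT. It fell without overlap between the groups (log2 fold change -1.52, SE 0.50, limma adjusted p = 0.0486). GRMZM5G864847 (BIF4) had 6.07, 17.9 and 4.98 FPKM in zmte1-2, against 26.7, 23.0 and 22.9 FPKM in WT. All 3 zmte1-2 values were below the WT values, yet the gene did not pass (log2 fold change -1.50, 95% interval -2.76 to -0.24, limma adjusted p = 0.0558). GRMZM2G031615 (chromosome 4, 16440811 to 16449027; RefSeq synonym AUX5) had 0.79, 7.71 and 0.96 FPKM in zmte1-2, against 17.0, 7.17 and 8.46 FPKM in WT. In it zmte1-2 library 2 lay within the WT range, and the gene did not pass (log2 fold change -2.09, 95% interval -3.92 to -0.26, limma adjusted p = 0.0599). In zmte1-2 libraries 1 and 3 the distance to WT differed between the 5 genes. The mean of these libraries was 3.17% to 8.04% of the WT mean in GRMZM5G825707, GRMZM5G809195 and GRMZM2G031615, and 22.8% and 23.7% in GRMZM5G864847 and GRMZM2G079957. The first 3 of these are also the 3 least abundant members in WT.

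The 5 members with higher means varied more in how the libraries were ordered. GRMZM2G159285 (chromosome 1, 275098311 to 275101078), described only as an uncharacterized protein and placed in the family by its orthology, had 91.7, 111.8 and 82.5 FPKM in zmte1-2, against 33.6, 44.4 and 45.6 FPKM in WT. It is the member in which the 3 zmte1-2 libraries lay closest together relative to their mean, and the groups did not overlap. It was the 1 member that rose, with a mean 2.32-fold higher in zmte1-2 (95.4 ± 15.0 FPKM, against 41.2 ± 6.63 FPKM in WT, SD, n = 3). The limma adjusted p was 0.0442, at a log2 fold change of 1.20 (SE 0.38). GRMZM2G079200 (chromosome 6, 103303641 to 103305338; RefSeq synonym AUX15) had 184.2, 76.6 and 116.5 FPKM in zmte1-2, against 19.8, 73.9 and 57.7 FPKM in WT. The groups met almost without a gap, at zmte1-2 library 2 and WT library 2, and the gene did not pass (log2 fold change 1.42, 95% interval -0.05 to 2.88, limma adjusted p = 0.0832).

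In GRMZM2G057067, GRMZM2G104176 and GRMZM2G079200, zmte1-2 library 2 was the lowest of its genotype and WT library 1 the lowest of the WT libraries. GRMZM2G057067 (chromosome 3, 199377733 to 199380221; RefSeq synonym AUX10) had 58.0, 16.1 and 58.3 FPKM in zmte1-2, against 9.43, 20.7 and 18.4 FPKM in WT. Libraries 1 and 3 of zmte1-2 were nearly equal and well above WT, while library 2 lay within the WT range (log2 fold change 1.28, 95% interval -0.20 to 2.76, limma adjusted p = 0.107). GRMZM2G104176 (chromosome 3, 7118667 to 7121305; RefSeq synonym AUX18) had 119.6, 13.1 and 63.6 FPKM in zmte1-2, against 15.0, 50.5 and 27.4 FPKM in WT. Its zmte1-2 libraries enclosed the whole WT range, and it did not pass (log2 fold change 0.75, 95% interval -1.30 to 2.80, limma adjusted p = 0.443).

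GRMZM2G115357 (chromosome 7, 10975561 to 10976899), of undescribed protein and placed here by orthology alone, had the highest mean of the 10 in both genotypes. In WT it was the highest member in each library, but in zmte1-2 in library 2 alone. It had 114.9, 650.2 and 61.2 FPKM in zmte1-2, against 158.1, 125.1 and 86.2 FPKM in WT. Only zmte1-2 library 2 lay above the WT libraries, at 7.38 times the mean of zmte1-2 libraries 1 and 3, which itself was 71.5% of the WT mean. The higher mean of this gene in zmte1-2 therefore rested on 1 library. The test gave no call (log2 fold change 0.47, 95% interval -1.57 to 2.52, limma adjusted p = 0.619), and without zmte1-2 library 2 the sign turned (log2 fold change -0.51, limma adjusted p = 0.338).

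**Figure D2:**
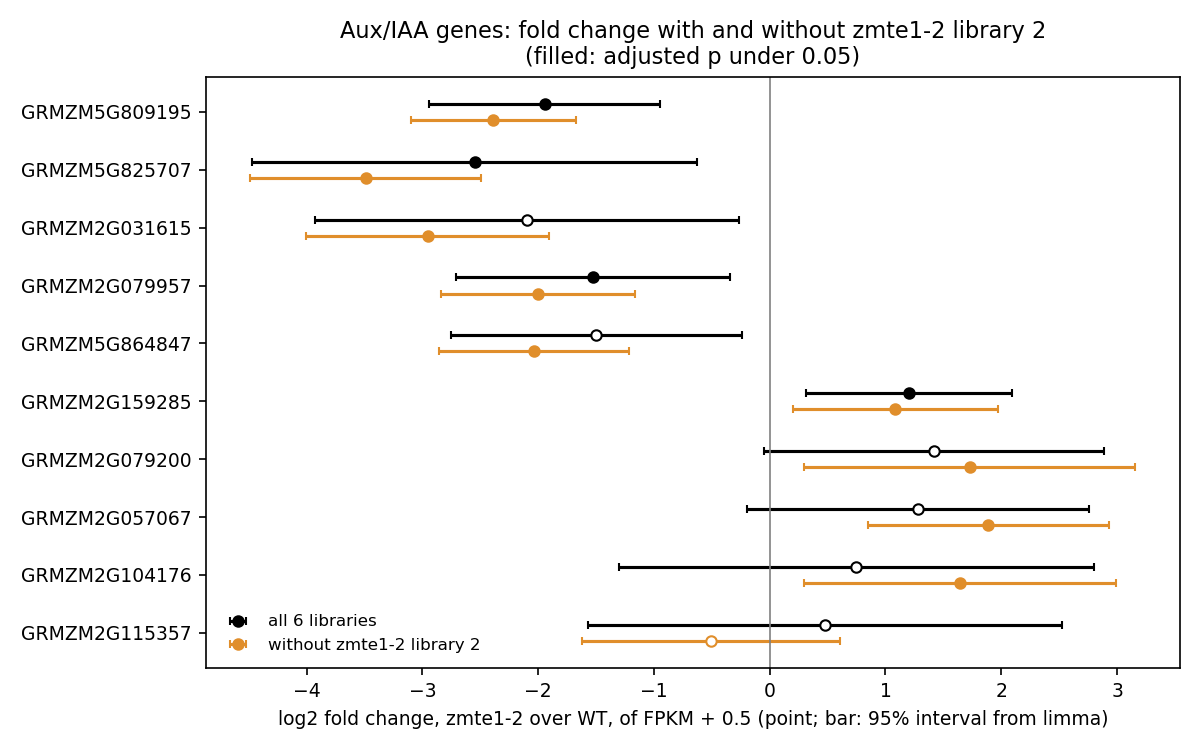
Log2 fold change (zmte1-2 over WT, on FPKM + 0.5) with its 95% interval from limma for each Aux/IAA gene, with all 6 libraries (black) and without zmte1-2 library 2 (orange), filled where the adjusted p is under 0.05. With all libraries 4 points are filled, and without that library 9 are, while GRMZM2G115357 moves across 0.

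The number of calls in the whole table depended on single libraries, and that of the members moved with it. Without zmte1-2 library 2, 5 members were called lower and 4 higher by limma, beside 48.9% and 20.2% of all tested genes under the same omission. The calls then covered all 5 members with lower means, with log2 fold changes of -2.0 to -3.49, and GRMZM2G159285, GRMZM2G079200, GRMZM2G057067 and GRMZM2G104176, with log2 fold changes of 1.08 to 1.89. Leaving out zmte1-2 library 1, zmte1-2 library 3, WT library 1 or WT library 3, each alone, gave 0 members in either direction. Of all tested genes, 0.0251% were then called lower and 0.0251% higher without zmte1-2 library 1, and 17.6% and 1.86% without zmte1-2 library 3. The shares were 3.71% and 0.251% without WT library 1, and 0.0502% and 0.0251% without WT library 3. Leaving out WT library 2 gave 1 lower member (GRMZM5G809195) and 0 higher, beside 25.5% and 4.11% of all tested genes. At an unadjusted limma p under 0.05, the 4 omissions that gave 0 still held 1 or 2 lower and 0 or 1 higher members. The sign of 9 of the 10 fold changes stayed the same whichever library was left out, the exception being GRMZM2G115357. In GRMZM2G104176 the log2 fold change shrank to 0.08 without zmte1-2 library 1 (limma adjusted p = 0.938). Rescaling by the median of ratios moved the median of all tested genes by 0.99 on the log2 scale and turned round the balance of calls, with 5.17% called lower and 13.3% higher. Its factors came from the listed genes alone, and most tested genes had a lower mean in zmte1-2. It therefore moves their median towards 0 by construction and cannot show how far the calls depend on normalization. After it the 5 members with lower means kept negative log2 fold changes, of -0.38 to -1.68, but 0 of them were called by limma (1 at an unadjusted p under 0.05), and GRMZM2G159285 was called higher (log2 fold change 2.35, limma adjusted p = 0.0204). These counts of 0 lower and 1 higher again lay near the shares of all tested genes.

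Library 2 of zmte1-2 also stood apart in other genes. Of the 2671 tested genes with a lower mean in zmte1-2, 47.7% had their highest zmte1-2 value in library 2, as did 5 of 5 Aux/IAA members with lower means. Of the 1316 with a higher mean 55.5% had their lowest zmte1-2 value there, as did 3 of 5 members with higher means. The deviations of zmte1-2 library 2 from its genotype mean correlated with those of WT library 1 (Pearson r = 0.517 across 3987 genes, which are not independent replicates). This was the highest value among pairs of a zmte1-2 and a WT library, and the lowest was zmte1-2 library 3 with WT library 1 (r = -0.526). Deviations within a genotype sum to 0, so such correlations constrain each other. WT library 1 was the highest WT library in 4 of the 5 members with lower means and the lowest in 4 of the 5 with higher means. For the meristem gene KN1 (GRMZM2G017087), a homeobox gene whose transcript marks the shoot and intercalary meristems, zmte1-2 libraries 1 to 3 had 35.3, 81.7 and 17.0 FPKM, against 142.7, 75.3 and 108.0 FPKM in WT libraries 1 to 3, and it was not called (limma adjusted p = 0.0756). Its order among the zmte1-2 libraries was that of GRMZM2G079957 and GRMZM5G864847, and also of GRMZM2G159285 and GRMZM2G115357, which had higher means in zmte1-2. Over the 11 listed JAZ genes, repressors of the jasmonate response that wounding induces, the summed level was 453.7, 1716 and 267.4 FPKM in zmte1-2 and 639.9, 262.0 and 131.0 FPKM in WT. That sum was highest within each genotype in the same libraries as GRMZM2G115357, which were also those of KN1 and of 4 of the 5 members with lower means. Over 14 chlorophyll a-b binding proteins, markers of green tissue, the sum ranged from 95.2 to 134.0 FPKM in zmte1-2 and from 172.6 to 671.3 FPKM in WT. Over 23 histone genes, whose transcripts mark dividing cells, it ranged from 2065 to 3055 FPKM in zmte1-2 and from 4135 to 6732 FPKM in WT. A JAZ gene and a chlorophyll a-b binding gene were listed at 0 in at least 1 library. The part of these differences in the Aux/IAA values was not tested, and in whole nodes fewer cells of a type and less RNA per cell cannot be told apart.

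The makeup of the summed Aux/IAA level is given next by library. The 5 members with lower means together had 15.1, 51.7 and 12.8 FPKM in zmte1-2 libraries 1 to 3, against 87.5, 69.2 and 73.9 FPKM in WT libraries 1 to 3. They made up 2.59%, 5.62% and 3.25% of the summed FPKM of the 10 members in zmte1-2, against 27.1%, 18.0% and 23.9% in WT. In this share the highest zmte1-2 library, library 2, was still below the lowest WT library. The 5 members with higher means had a sum of 568.4, 867.8 and 382.1 FPKM in zmte1-2, against 235.8, 314.5 and 235.3 FPKM in WT. Summed over all 10, the family stood at 583.5, 919.5 and 394.9 FPKM in zmte1-2, against 323.4, 383.7 and 309.2 FPKM in WT. GRMZM2G115357 alone gave 70.7% of that sum in zmte1-2 library 2, beside 15.5% to 48.9% in the other 5 libraries. Without it the sum was 468.6, 269.4 and 333.7 FPKM in zmte1-2 and 165.3, 258.6 and 223.0 FPKM in WT. These sums are given with no test, since which members rise or fall on average fixes their direction.

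**Figure D3:**
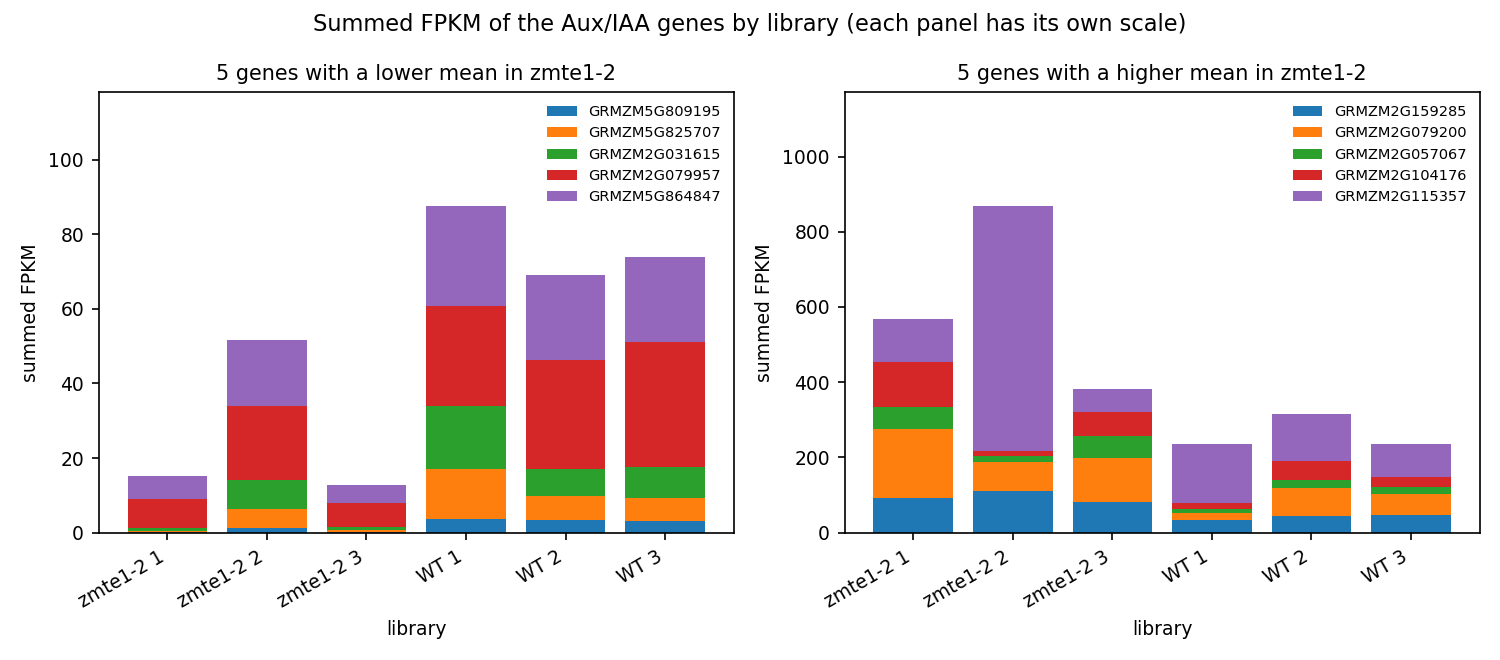
Summed FPKM by library, stacked by gene, for the 5 Aux/IAA genes with a lower mean in zmte1-2 (left panel) and the 5 with a higher mean (right panel, on a larger scale), zmte1-2 libraries left of WT libraries. The left sums reach 51.7 FPKM in zmte1-2 against at least 69.2 FPKM in WT, and the tall bar on the right is zmte1-2 library 2, mostly GRMZM2G115357.

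By level per transcript length, the order in zmte1-2 was GRMZM2G115357, GRMZM2G079200, GRMZM2G159285, GRMZM2G104176, GRMZM2G057067, GRMZM2G079957, GRMZM5G864847, GRMZM2G031615, GRMZM5G825707 and GRMZM5G809195, with means of 275.4 down to 0.60 FPKM. The first place rested on library 2, since the mean of libraries 1 and 3 was 88.0 FPKM in GRMZM2G115357 and 150.3 FPKM in GRMZM2G079200. The ranges of neighbours in this order overlapped in 9 of 9 pairs. In WT, the means ran over 123.1 down to 3.33 FPKM and the order differed in the place of 1 gene, GRMZM2G057067 (16.2 FPKM), which stood below GRMZM2G079957 (29.8 FPKM) and GRMZM5G864847 (24.2 FPKM). The ranges of neighbours overlapped there in 5 of 9 pairs. The pairs that did not overlap in WT were GRMZM2G115357 over GRMZM2G079200, GRMZM2G079957 over GRMZM5G864847, GRMZM5G864847 over GRMZM2G057067 and GRMZM5G825707 over GRMZM5G809195. The 5 most abundant members in zmte1-2 were the 5 with higher means there.

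**Figure D4:**
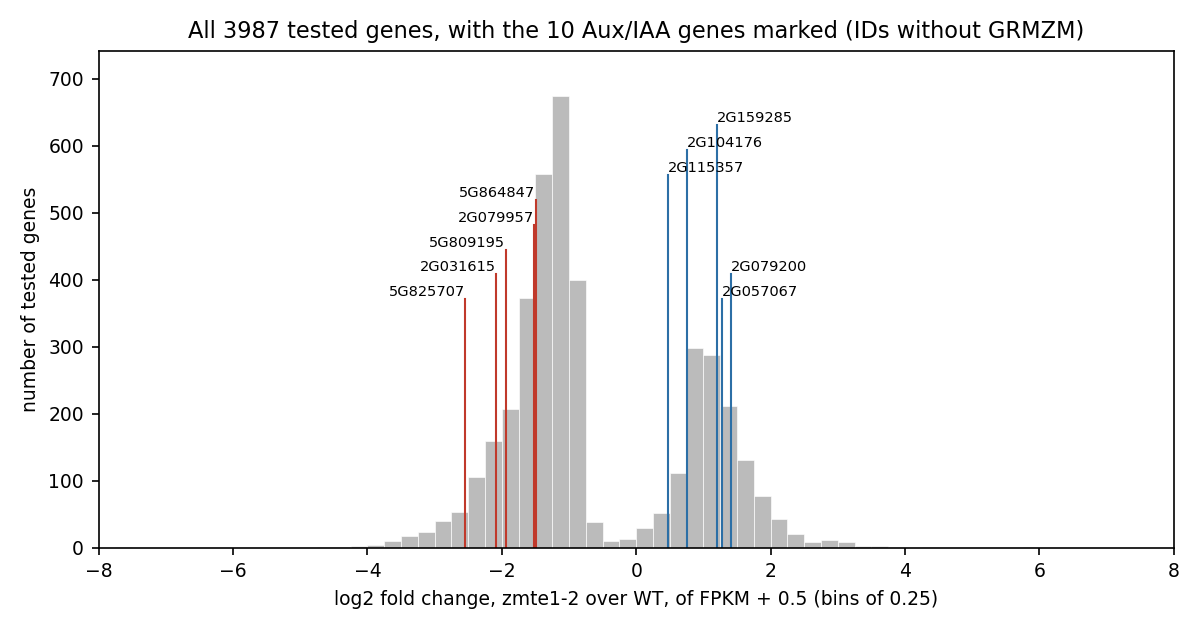
Number of tested genes (of 3987) by log2 fold change, zmte1-2 over WT on FPKM + 0.5, in bins of 0.25, with the 10 Aux/IAA genes as lines whose height carries no value (red, below 0; blue, above 0). Few genes lie near 0, as the deposited table lists only genes called by the authors, and GRMZM5G825707 has the lowest value of the 10, with 3.51% of tested genes below it.

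Among all tested genes the members did not lie at the extremes. GRMZM5G825707 had 3.51% of tested genes below its fold change and GRMZM2G079200 had 9.36% above its own. GRMZM2G159285, the member that rose, had 14.3% above it. By pattern over the 6 libraries, the genes most like GRMZM5G809195 among 3986 others were GRMZM2G052606, described as transcription factor MYB46, GRMZM5G860761, described as a glucan endo-1,3-beta-glucosidase, and GRMZM2G045188, of uncharacterized protein. Their mean-centred log2 profiles differed from it by a root mean square of 0.08, 0.12 and 0.13. The nearest other member was GRMZM5G864847, at 0.26 and place 37. These distances hold only on the log2 scale of the test, which understates changes at low levels. In zmte1-2 libraries 1 and 3, GRMZM5G809195 had 0.21 and 0.25 FPKM, and its WT mean was 14.5 times their mean. GRMZM2G052606 had 1.23 and 1.05 FPKM there, against 8.09, 7.73 and 7.03 FPKM in WT libraries 1 to 3. In FPKM its drop was therefore smaller. For GRMZM2G159285 the nearest were GRMZM2G137329, described as a lipid-transfer protein, GRMZM2G163998, described as the vesicle protein SEC22, and GRMZM2G177812, of hypothetical protein, at 0.11, 0.14 and 0.14. Its nearest fellow member, GRMZM2G079200, came at place 482 with 0.64.

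Other genes of the auxin branch were also called, more of them lower than higher. Of 32 tested genes with the orthology of receptors, ARFs, GH3 enzymes, SAUR proteins or AUX1/LAX carriers (41 listed), 16 fell and 1 rose by limma, beside 34.2% and 6.02% of all tested genes, with a median log2 fold change of -1.47. The TIR1/AFB receptors, which bind auxin together with Aux/IAA proteins, fell in 2 of 3 tested cases, among them GRMZM2G398848, described as TIR1-like (mean 3.18 FPKM in zmte1-2 and 9.46 FPKM in WT, log2 fold change -1.54, limma adjusted p = 0.0440). The ARFs, the partners that Aux/IAA proteins repress, fell in 4 of 5, among them GRMZM2G475882, described as ARF8 (mean 10.5 FPKM in zmte1-2 and 30.7 FPKM in WT, log2 fold change -1.58, limma adjusted p = 0.0364). The primer list of the study names this gene ZmARF30 and gives the name ZmARF8 to another gene. The remaining ARF was not called, at a log2 fold change of 1.15. Without zmte1-2 library 2, 4 ARFs were called lower and 1 higher. Of 20 tested SAUR genes, early auxin-response genes linked to cell elongation, 8 fell and 1 rose. The most abundant of those called was GRMZM2G420812, described as auxin-induced protein 15A (mean 8.48 FPKM in zmte1-2 and 37.4 FPKM in WT, log2 fold change -2.07, limma adjusted p = 0.0303). Of 3 tested AUX1/LAX genes, which encode auxin import carriers, 2 fell, among them GRMZM2G129413 (mean 8.57 FPKM in zmte1-2 and 32.4 FPKM in WT, log2 fold change -2.13, limma adjusted p = 0.0442). The GH3 gene that could be tested was not called. In 23 of the 41 listed genes, 17 of them among the 26 listed SAUR genes, zmte1-2 library 2 was the highest of its genotype. Of all tested genes, it was the highest in 47.7% of those with a lower mean in zmte1-2 and 36.1% of those with a higher mean. Without zmte1-2 library 2, 22 of the 32 were called lower and 4 higher, beside 1949 and 805 of the 3987 genes. Leaving out zmte1-2 library 3 gave 7 lower, leaving out WT library 1 gave 3 and leaving out WT library 2 gave 10, each with 0 higher, while 701, 148 and 1015 of the 3987 genes were called lower. Without zmte1-2 library 1 or WT library 3, 0 of the 32 were called in either direction by limma, with 15 and 13 lower and 1 and 0 higher at an unadjusted p under 0.05. Of all 3987 genes only 1 and 2 were called lower, and 1 higher in each case.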

How the data were processed

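RNA-seq of 3 zmte1-2 and 3 WT node samples was analysed from a table of 5546 genes that the authors had called (P-value at most 0.05 and at least a 2-fold change, by their Methods). The authors deposited FPKM per library. Aligner, counting, build and test: not given in the sources used here. The authors' mean FPKM, log2 ratios, p-values and q-values, pooled and for single pairs of libraries, were not used. Without a known depth, counting intervals could not be computed. The mutant's columns are headed ZBM66 and were matched to the zmte1 samples by number.

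Values as log2(FPKM + 0.5) of the 3987 genes with at least 1 FPKM in at least 3 libraries were compared by limma 3.58.1 in R 4.3.3 (eBayes with trend, two-sided, Benjamini-Hochberg over all tested genes, called under 0.05). The script was tested on simulated data. The members and lists were chosen with earlier results of these data known. All 10 members are named, with the nearest 3 profiles of the lower and the higher member of smallest p. Auxin lists were taken by KEGG orthology. Alternatives were pseudocounts of 0.1 and 1, no minimum, median-of-ratios rescaling, no trend, a replicate block and each library left out. The omission of WT library 1 and zmte1-2 library 2 together was chosen after seeing the data. No pair of libraries held equal values in more than 4.17% of genes. Protein and promoter sequences were not analysed here.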

Additional observations from a re-analysis of the deposited data

How the results depend on the processing

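The counts of 3 lower and 1 higher Aux/IAA members, and of 16 lower and 1 higher other auxin genes, were the same with a pseudocount of 1 and without the trend. With a pseudocount of 0.1, 1 member was lower, with the other auxin genes at 15 and 1 and all tested genes at 1214 lower and 207 higher, beside 1363 and 240 in the reported comparison. Without the FPKM minimum, 1 member was lower and 0 higher, and 13 and 0 other auxin genes, beside 1228 and 194 of 5546 genes. Median-of-ratios rescaling left 0 members lower and 4 other auxin genes lower, with 1 higher in each, beside 206 lower and 532 higher of all tested genes. This rescaling centres a table of mostly lower genes, so its counts cannot show how far the calls depend on normalization. The counts without 1 library ranged from 0 to 5 lower and 0 to 4 higher members, and from 0 to 22 lower and 0 to 4 higher other auxin genes, while all tested genes ranged from 1 to 1949 lower and 1 to 805 higher. With zmte1-2 library 2 and WT library 1 both omitted, a choice made after seeing the data, 5 members were lower and 3 higher, with 19 and 4 other auxin genes, beside 1788 and 755 of all tested genes. The log2 fold change of GRMZM2G115357 turned to -0.51 without zmte1-2 library 2 and to -0.31 without both libraries, within a range of -0.51 to 1.19 over the single omissions. No other member changed sign in the 12 alternatives listed with the methods other than that joint omission. GRMZM2G104176 came near 0, with log2 fold changes of 0.08 to 1.89 over these 12. Of these 12, GRMZM5G809195 was called in 6 (adjusted p 0.00367 to 0.133), GRMZM2G159285 in 5 (0.0204 to 0.138), and GRMZM5G825707 and GRMZM2G079957 in 3 each (0.00344 to 0.244 and 0.00645 to 0.683). With the replicate number as a block, 0 members and 0 other auxin genes were called in either direction, beside 1 lower and 1 higher of all tested genes. At an unadjusted limma p under 0.05 the block fit held 5 lower and 0 higher members and 16 lower and 1 higher other auxin genes. Deviations of same-numbered libraries from their genotype mean correlated at -0.30, -0.40 and 0.41 across genes. These deviations sum to 0 within each genotype, so the correlations constrain each other and cannot settle whether the numbers pair the samples. The depth of the libraries is unknown.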

Other observations

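GH3 enzymes join auxin to amino acids and so remove the active hormone, and their genes are, like Aux/IAA genes, early auxin-response genes. GRMZM2G378106, described as an indole-3-acetic acid amido synthetase, had 12.2, 66.7 and 7.05 FPKM in zmte1-2 libraries 1 to 3, against 3.23, 3.81 and 7.13 FPKM in WT libraries 1 to 3. As in GRMZM2G115357, the highest value lay in zmte1-2 library 2, and the test gave no call (log2 fold change 1.90, 95% interval -0.05 to 3.85, limma adjusted p = 0.0815). GRMZM2G410567, described as GH3.13, had 1.87, 0.99 and 3.59 FPKM in zmte1-2, against 0.97, 0.99 and 0.57 FPKM in WT, and was too low for the test.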
